A study of Mus musculus with 8 samples.

Results

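A set of 10 genes of the immediate early response were followed in the posterior capsule of the mouse knee, in naive joints and after 2 weeks in a cast. The members were chosen by symbol: Egr1, Egr2 and Egr3, Nr4a1, Nr4a2 and Nr4a3, Ier2, Ier3 and Ier5, and Srf. All 10 were among the 16464 genes of the deposited table and all 10 passed the filter on low values, as did 15120 genes in all. The naive group held 4 libraries and the cast group 4, from wild type male C57BL/6 mice that were 10 weeks old. In the cast group the knee had been held at 140 degrees from 8 weeks of age. Whether each library stands for its own mouse is not stated in the labels, and p values therefore describe the spread among the 8 libraries, which may be partly technical.

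Immediate early genes are transcribed within minutes of a stimulus such as a growth factor, stretch or stress, without new protein being made first, and their messages are short lived. The EGR proteins are zinc finger transcription factors that bind GC-rich sites, and Egr1 and Egr2 are known in tendon and ligament for their part in collagen transcription. The NR4A proteins are orphan nuclear receptors, made in muscle, fat, macrophages and vessel walls in response to cyclic AMP, calcium and inflammatory signals. SRF binds CArG boxes upstream of many immediate early and actin genes, together with ternary complex factors or with myocardin-related factors.

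Expression in cast capsules differed between these genes. Egr1, Egr2, Egr3, Nr4a1 and Nr4a2 fell, and the other 5 did not pass the test. By the ratio of group means the falls ran from 2.74-fold for Nr4a2 to 9.68-fold for Egr3. Thus 5 of 10 members were lower (limma, Benjamini-Hochberg adjusted p at most 0.05), where 5.46% of all tested genes were lower and 6.51% higher. In the same 5 genes all 4 cast libraries lay below all 4 naive libraries, which was so for 9.39% of tested genes. The median log2 fold change of the members was -1.46, against 0.07 over all tested genes. Each log2 fold change is the cast mean less the naive mean of log2(value + 1), which understates the change of low genes. No member had all 4 cast libraries above all naive ones, as 11.1% of tested genes did. The members were chosen with earlier results of these data known, so these shares are descriptions and not a test.

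The libraries held 1503880 to 7381255 reads, recovered from the deposited values, and naive replicate 4 was the shallowest (the others held at least 5956148). A single read was worth 0.133 to 0.165 in most libraries, and 0.647 in naive replicate 4. Connective tissue content was described with 10 fibroblast and lining genes such as Col1a1, Dcn, Pdgfra and Prg4. As a set they are not specific to capsule, so their presence does not identify the tissue. All 10 were present in both groups, with summed values of 27959 to 46671 in naive and 26242 to 43993 in cast libraries. Within these 10, 1 rose and 1 fell, which is 10% each, near the 6.51% higher and 5.46% lower of all tested genes. Lum (lumican) rose from 252 ± 169 to 1678 ± 228 (SD, n = 4 each, limma adjusted p = 0.0157). Cd34 fell from 409 ± 69.2 to 197 ± 40.8 (SD, n = 4 each, limma adjusted p = 0.0123). The sums do not show these changes of single genes.

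Sequence upstream of the start sites is shown for Nr4a1, Nr4a2 and Egr2, which were each called lower, for Nr4a3, which did not pass, and for Srf. It comes from RefSeq windows on GRCm38.p6, and those of 7 of the 10 members were used. Bases before the annotated start and outside GENCODE exons are printed on the strand of the gene, 5′ to 3′, with motif matches in capitals.
Nr4a1, chr15:101266596-101266845, plus strand: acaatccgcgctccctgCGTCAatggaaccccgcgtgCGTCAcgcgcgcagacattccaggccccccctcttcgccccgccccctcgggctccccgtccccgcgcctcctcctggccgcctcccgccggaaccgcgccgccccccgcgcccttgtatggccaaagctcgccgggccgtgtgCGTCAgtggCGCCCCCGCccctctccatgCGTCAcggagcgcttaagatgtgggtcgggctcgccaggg
Nr4a2, chr2:57124004-57124253, minus strand: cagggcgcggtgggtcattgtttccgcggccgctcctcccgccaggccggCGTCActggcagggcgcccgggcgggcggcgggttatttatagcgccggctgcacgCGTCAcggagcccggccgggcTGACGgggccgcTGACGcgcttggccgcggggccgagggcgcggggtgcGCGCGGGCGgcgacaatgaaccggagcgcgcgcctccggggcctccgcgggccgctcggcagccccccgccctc
Nr4a3, chr4:48045055-48045152, plus strand: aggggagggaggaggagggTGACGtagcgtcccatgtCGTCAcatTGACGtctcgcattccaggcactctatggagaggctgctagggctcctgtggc
Egr2, chr10:67537619-67537868, plus strand: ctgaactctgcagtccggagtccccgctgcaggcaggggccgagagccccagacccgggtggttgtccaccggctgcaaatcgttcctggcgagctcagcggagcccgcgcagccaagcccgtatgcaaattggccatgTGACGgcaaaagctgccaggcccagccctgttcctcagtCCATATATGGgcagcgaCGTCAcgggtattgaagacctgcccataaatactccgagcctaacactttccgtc
Srf, chr17:46556176-46556412, minus strand: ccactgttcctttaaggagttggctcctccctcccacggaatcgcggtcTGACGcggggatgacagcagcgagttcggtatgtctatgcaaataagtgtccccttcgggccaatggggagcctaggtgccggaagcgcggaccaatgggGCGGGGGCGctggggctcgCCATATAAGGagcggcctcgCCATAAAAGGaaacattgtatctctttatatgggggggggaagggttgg

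The 5 motifs were searched on both strands in the 250 bases before each start: the CArG box, the cyclic AMP response element TGACGTCA, its core TGACG, the EGR site GCGNGGGCG and the NR4A site AAAGGTCA. The core is contained in the full element. Over the 32851 windows of all genes, 1.47% held a CArG box, 1.55% the full element, 17.8% the core, 4.70% the EGR site and 1.34% the NR4A site. Nr4a1, Nr4a2 and Nr4a3 each held 4 cores, one of them for Nr4a3 outside the stretch printed. Nr4a1 and Nr4a2 each held 1 EGR site. The window printed for Egr2 held 1 CArG box and 2 cores, and Srf held 2 CArG boxes, 1 core and 1 EGR site. RefSeq gives Egr2 5 windows, several of them overlapping, and 4 held a CArG box. The windows of Ier3 and Ier5 held none of the motifs searched. No window was found for Egr3 or Ier2, and Egr1 was left out of the search. The motifs upstream of these genes are therefore not described. These matches are descriptions of letters, and binding was not measured.

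Egr1 was the most abundant EGR gene. Egr1 (chromosome 18, 34859823 to 34864984, plus strand, GRCm38) had normalised read counts of 187, 184, 539 and 419 in naive replicates 1 to 4 and of 58.3, 123, 101 and 20.3 in cast replicates 1 to 4. The groups did not overlap, and the naive libraries themselves lay at a pair of lower and a pair of higher values. Its mean was 332 ± 177 in naive and 75.7 ± 45.6 in cast capsules (SD, n = 4 each; log2 fold change -2.24 ± 0.56 SE, limma adjusted p = 0.0312). The call was lost without naive replicate 3 (-1.95, adjusted p = 0.0841), cast replicate 1 (-2.21, adjusted p = 0.0707) or cast replicate 3 (-2.47, adjusted p = 0.0516).

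Egr3, a factor known from T cells and from muscle spindle development, had the largest ratio of means. Egr3 (chromosome 14, 70077203 to 70082614, plus strand) was 9.79, 7.26, 20.3 and 12.3 in naive replicates 1 to 4 and 1.98, 1.80, 0.954 and 0.400 in cast replicates 1 to 4. These cast values rest on 12, 12, 7 and 3 reads, and the naive values on 19 to 123. Even the highest cast library was below the lowest naive one, and Egr3 was called without each library in turn (log2 fold change -2.53 ± 0.35 SE, limma adjusted p = 0.00252, left-out range 0.00256 to 0.0119). Egr2, the EGR gene known for its role in Schwann cell myelination, lies on chromosome 10 (67535475 to 67542188, plus strand). It was 11.2, 7.42, 17.5 and 11.6 in naive replicates 1 to 4 and 2.47, 5.10, 2.59 and 2.53 in cast replicates 1 to 4. Egr2 fell by 1.62 ± 0.30 (SE) on the log2 scale (limma adjusted p = 0.00872), with cast replicate 2 standing above the other 3 cast libraries. The summed level of 5 Schwann cell markers was 459 to 562 in naive libraries and 263, 437, 402 and 506 in cast replicates 1 to 4. The groups thus overlapped only through cast replicate 4, and none of the 5 markers passed the test. Most of the naive sums came from Pmp22 alone, at 374 to 433.

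Nr4a1, also known as Nur77, had the deepest log2 fold change of the members by limma. By edgeR and DESeq2 on recovered reads Egr3 was deeper, at -3.28 and -3.30, against -3.12 and -3.14 for Nr4a1. Nr4a1 (chromosome 15, 101254269 to 101274795, plus strand) was 88.9, 84.1, 177 and 170 in naive replicates 1 to 4, and 18.6, 12, 24.3 and 4.40 in cast replicates 1 to 4. The lowest naive library was more than 3 times the highest cast library. The means were 130 ± 50.4 and 14.8 ± 8.57 (SD, n = 4 each), so that 11.4% of the naive mean remained (log2 fold change -3.18 ± 0.47 SE, limma adjusted p = 0.00326). Nr4a1 was called in all 24 alternative analyses that were run, as was Egr3.

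Nr4a2, or Nurr1, fell less and was even within each group. Nr4a2 (chromosome 2, 57106830 to 57124003, minus strand) was 16.0, 17.4, 15.7 and 9.70 in naive replicates 1 to 4 and 5.60, 4.35, 7.23 and 4.27 in cast replicates 1 to 4. The lowest naive value, from naive replicate 4, rests on 15 reads and was still above every cast value. Nr4a2 fell by 1.30 ± 0.25 (SE) on the log2 scale (limma adjusted p = 0.0105).

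**Figure D1:**
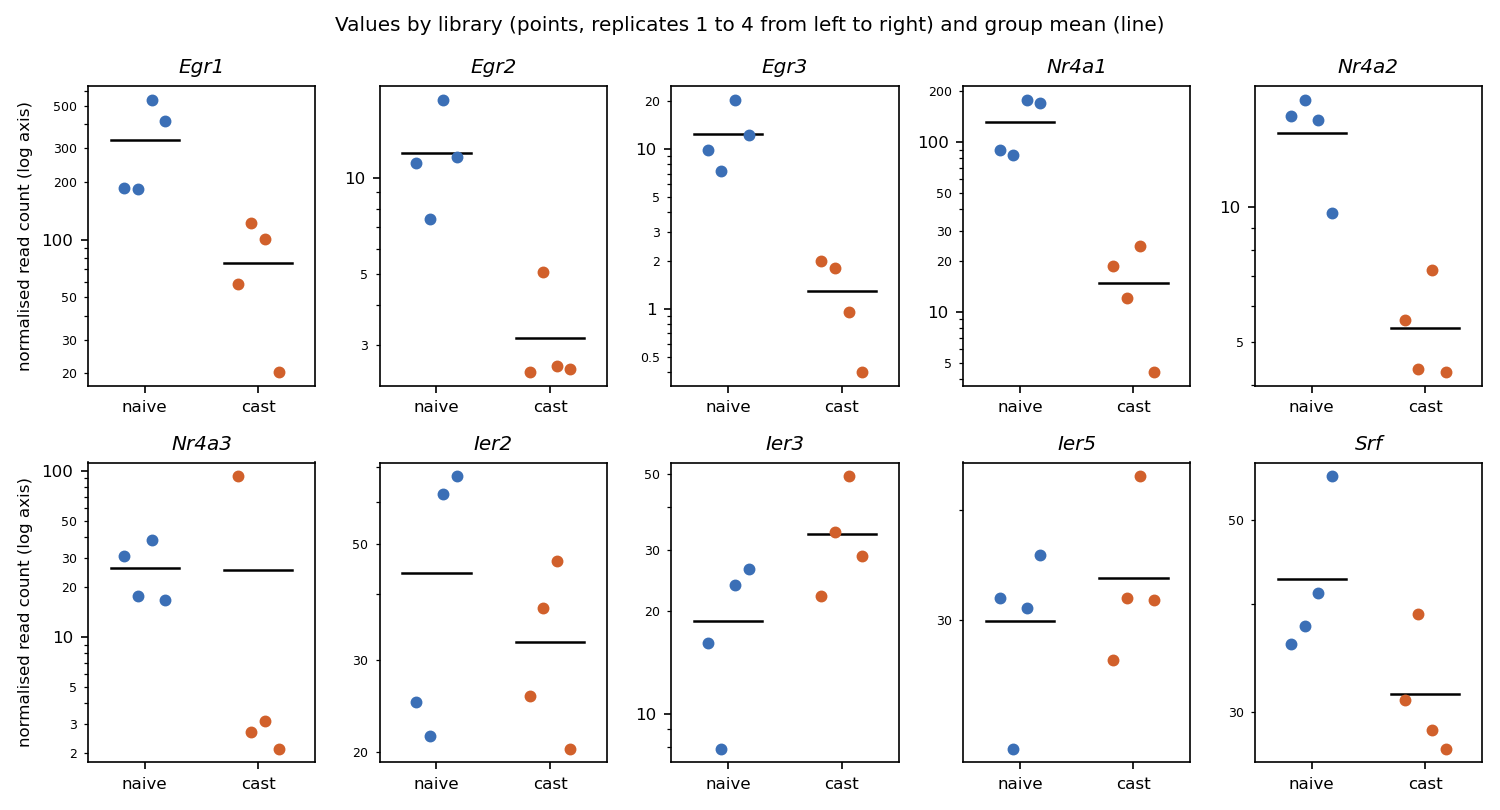
Normalised read counts of the 10 members in each library, on log axes that differ between panels. Points are libraries (blue naive, orange cast, replicates 1 to 4 from left to right) and lines are group means of 4. Egr1, Egr2, Egr3, Nr4a1 and Nr4a2 show separate groups, and Nr4a3 has 1 cast library at 92.8 above all naive libraries and 3 at 2.13 to 3.14.

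Nr4a3, or Nor1, split the cast libraries. Nr4a3 (chromosome 4, 48045153 to 48086447, plus strand) was 30.6, 17.7, 38.4 and 16.8 in naive replicates 1 to 4. In cast replicates 2 to 4 it was 2.70, 3.14 and 2.13, and in cast replicate 1 it was 92.8, from 563 reads. Thus 3 cast libraries lay below every naive library and the remaining one above every naive library. With all libraries Nr4a3 did not pass (log2 fold change -1.63, 95% interval -3.79 to 0.53, limma adjusted p = 0.324). Without cast replicate 1 it was lower (log2 fold change -2.81, adjusted p = 0.00230). Nr4a1 and Nr4a2 were not high in cast replicate 1, at 18.6 and 5.60.

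Several genes were also high in cast replicate 1. By the rule used below for Egr1 and Nr4a1, applied to Nr4a3 after its values were seen, Bcl2l11 (r = 0.986), Pde4d (r = 0.983), Thsd7a (r = 0.976), Trpm3 (r = 0.975) and Irf4 (r = 0.969) were most like Nr4a3 over the 8 libraries, values of r that rest largely on that 1 library. Irf4, an interferon regulatory factor of lymphocytes, macrophages and fat cells, was 339 in cast replicate 1, 11.6 to 14.9 in the other cast libraries and 39.5 to 98.8 in naive libraries. Like Nr4a3, Irf4 was thus below the naive range in 3 cast libraries and above it in the same library. Pde4d, a phosphodiesterase that breaks down cyclic AMP, was 104 in cast replicate 1, 31.0 to 36.8 in the other cast libraries and 19.4 to 28.9 in naive libraries. Bcl2l11, which encodes the pro-apoptotic protein BIM, was 108 in cast replicate 1, 36.3 to 44.9 in the others and 19.4 to 22.9 in naive libraries. In cast replicates 2 to 4 Pde4d and Bcl2l11 thus lay above the naive range, unlike Nr4a3 and Irf4. In cast replicate 1 the fat cell markers also had their lowest sum of all libraries, 1612 (others 2134 to 5345), and the part of this in the Nr4a3 value was not tested.

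**Figure D2:**
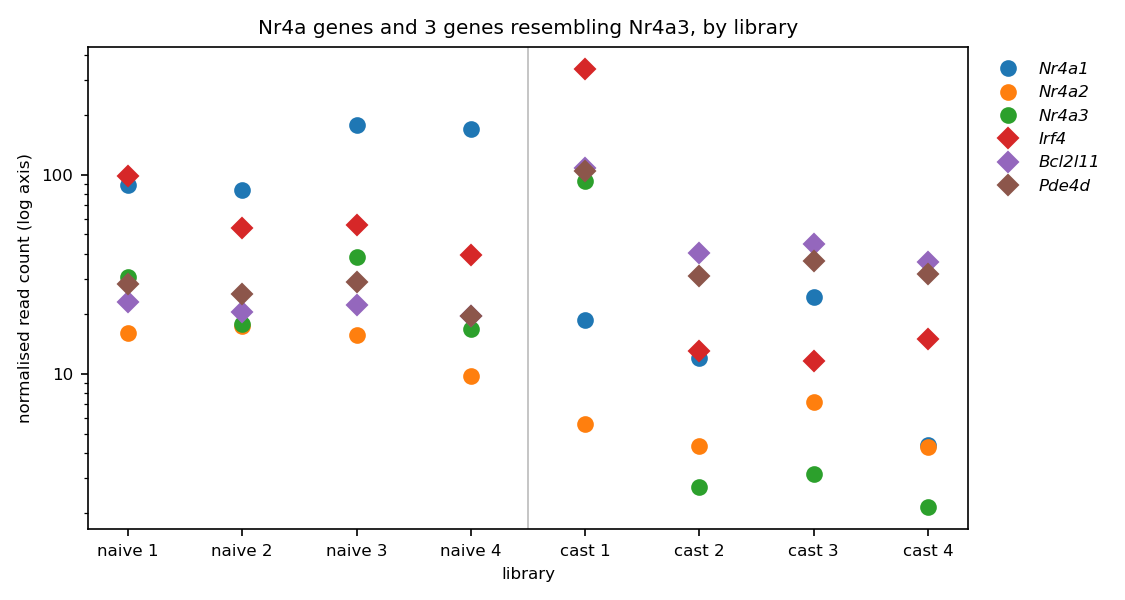
Normalised read counts (log axis) of Nr4a1, Nr4a2 and Nr4a3 (circles) and of Irf4, Bcl2l11 and Pde4d (diamonds) in each of the 8 libraries. Nr4a3 and Irf4 are at 92.8 and 339 in cast replicate 1 and below the naive range in cast replicates 2 to 4, and Nr4a1 and Nr4a2 are low in all 4 cast libraries.

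The 3 Ier genes and Srf did not pass the test. Ier2 (chromosome 8, 84661331 to 84662852, minus strand), which encodes a nuclear protein, was 24.9, 21.5, 62.2 and 67.3 in naive replicates 1 to 4 and 25.5, 37.6, 46.2 and 20.3 in cast replicates 1 to 4. All 4 cast values of Ier2 lay within or just under the naive range (log2 fold change -0.32, 95% interval -1.24 to 0.60, limma adjusted p = 0.664). Ier5 (chromosome 1, 155096361 to 155099636, minus strand), a regulator of heat shock factor activity, was 31.8, 21.5, 30.9 and 35.6 in naive replicates 1 to 4 and 27.0, 31.8, 43.6 and 31.6 in cast replicates 1 to 4 (log2 fold change 0.16, 95% interval -0.32 to 0.64, adjusted p = 0.679 by limma). That interval leaves out falls of the size estimated for each of the 5 called members.

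Ier3, a survival gene and target of NF-kB, had the opposite sign. Ier3 (chromosome 17, 35821684 to 35822923, plus strand) was 16.1, 7.90, 23.8 and 26.5 in naive replicates 1 to 4 and 22.1, 33.9, 49.4 and 28.8 in cast replicates 1 to 4, so that the groups overlapped through cast replicate 1. The log2 fold change of Ier3 was 0.88 (95% interval 0.05 to 1.72, unadjusted p = 0.0402, limma adjusted p = 0.166). By limma 0 members were called higher (1 had an unadjusted p under 0.05), and the same count of 0 came from edgeR and from DESeq2 on recovered reads. Srf (chromosome 17, 46548329 to 46556175, minus strand) was 36, 37.8, 41.2 and 56.3 in naive replicates 1 to 4 and 31.0, 39.0, 28.6 and 27.2 in cast replicates 1 to 4. Only cast replicate 2 reached the naive range of Srf (log2 fold change -0.42, 95% interval -0.86 to 0.02, adjusted p = 0.204 by limma). On GRCm38 Srf overlaps Gm26904 and Mir6976, and since the use of strand in counting is not stated, reads of these cannot be told apart from those of Srf.

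**Figure D3:**
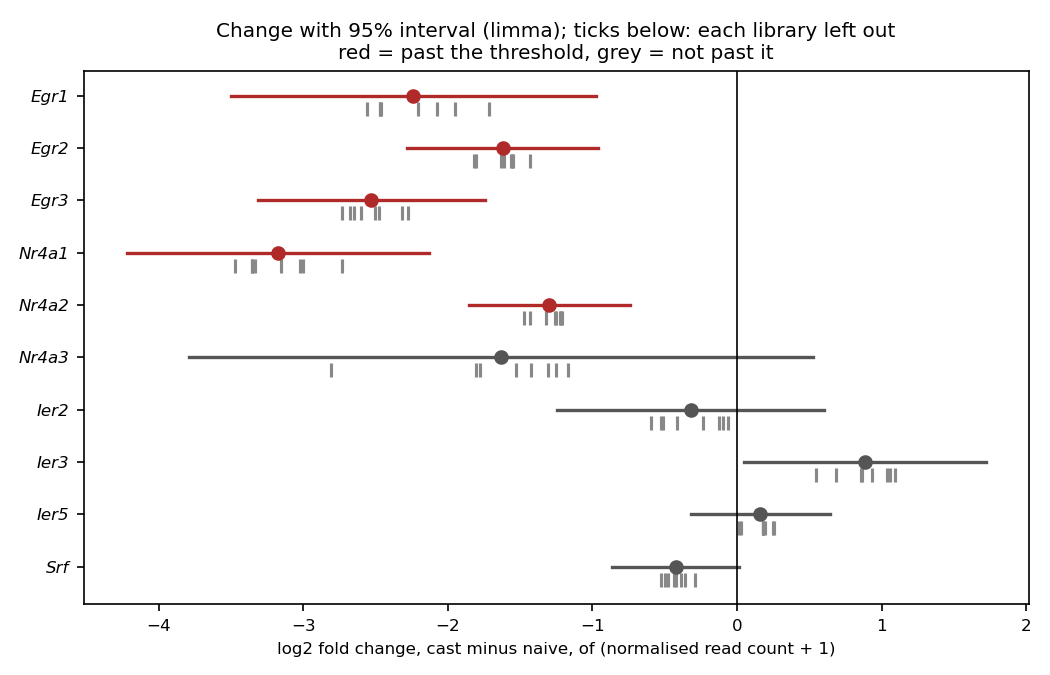
Log2 fold change, cast minus naive, of each member (points) with its 95% interval from limma (lines), red where it passed the threshold and grey where it did not. Ticks under each line are the estimates with 1 library left out, and the tick of Nr4a3 far to the left, at -2.81, is the estimate without cast replicate 1.

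Ratios between members were also taken within each library. The ratio of Egr1 to Ier2, which varied together within groups, was 7.51, 8.59, 8.68 and 6.23 in naive replicates 1 to 4 and 2.28, 3.27, 2.19 and 1 in cast replicates 1 to 4. It was therefore steadier among naive libraries than either gene, and separate between groups. The ratio of Nr4a1 to Ier2 was 2.53 to 3.92 in naive and 0.217 to 0.729 in cast libraries. Of 20 such pairs, of a lower member over an Ier gene or Srf, 18 had separate groups. Nr4a2 over Ier2 (0.144 to 0.812 in naive and 0.116 to 0.219 in cast libraries) and Nr4a2 over Srf (0.172 to 0.462 and 0.112 to 0.252) overlapped. The genes of these ratios were chosen with their values known, so the ratios are given as a description. Permutation p values were computed for the pairs but are not given, since the lower members were picked for their fall.

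Set per kilobase of exon, the order of the members differed between groups. In naive capsules Egr1 stood first at 74.1 ± 39.4 per kb, then Nr4a1 at 37.1 ± 14.4, Ier2 at 28.9 ± 15.9, Ier3 at 16.4 ± 7.40, Srf at 14.8 ± 3.19 and Ier5 at 9.14 ± 1.83 (normalised read count per kb, SD, n = 4). Nr4a3 at 4.32 ± 1.74, Nr4a2 at 3.62 ± 0.84, Egr2 at 3.51 ± 1.23 and Egr3 at 2.82 ± 1.29 followed. Neighbours in this order differed by less than the larger SD, other than Srf and Ier5, and Ier5 and Nr4a3. In cast capsules Ier3 stood first at 29.6 ± 10.3 per kb and Ier2 next at 21.3 ± 7.70, ahead of Egr1 at 16.9 ± 10.2, by differences within the spread. Nr4a1 at 4.22 ± 2.44 per kb lay below Srf at 10.9 ± 1.81 and Ier5 at 10.2 ± 2.17, and was followed by Nr4a3 at 4.21 ± 7.53, Nr4a2 at 1.32 ± 0.341, Egr2 at 0.934 ± 0.377 and Egr3 at 0.291 ± 0.168. There the neighbours that differed by more than the larger SD were Ier5 and Nr4a1, Nr4a2 and Egr2, and Egr2 and Egr3. Lengths are those of all annotated exons joined, and the isoforms in use were not measured here.

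Within groups, some members moved together. After the group mean was taken from each log2 value, Egr1 correlated with Ier2 (r = 0.860), Nr4a1 (r = 0.838) and Egr3 (r = 0.768) over the 8 libraries, and Ier3 with Ier5 (r = 0.937). Egr1 did not follow Nr4a2 (r = 0.003) or Nr4a3 (r = 0.044). In naive replicates 3 and 4 Egr1, Nr4a1 and Ier2 were each well above their levels in naive replicates 1 and 2, and in cast replicate 4 each was at its cast minimum. Points share a library, its depth and its cell makeup, so these values are descriptions.

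Among 7807 genes with a mean of at least 20, those most like Egr1 by the same measure were Scd2 (r = 0.964), Nr1d1 (r = 0.932), Piezo2 (r = 0.922), Rbm15 (r = 0.915) and Phlda3 (r = 0.893). Nr1d1 encodes the clock repressor REV-ERB alpha, and Piezo2 a mechanically gated channel. Nr1d1 also fell between groups, from 233 ± 58.7 to 83.5 ± 30.9 (SD, n = 4 each; limma adjusted p = 0.0118). Those most like Nr4a1 were Jun (r = 0.928), Fmnl3 (r = 0.924), Ctsk (r = 0.921), Asb1 (r = 0.920) and Fech (r = 0.914). Jun is itself an immediate early gene, and Ctsk encodes cathepsin K. For Jun the naive mean was 148 ± 50.4 and the cast mean 84.2 ± 23.3, which did not pass (SD, n = 4 each; limma adjusted p = 0.104).

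Other immediate early genes fell as well. Of 32 further immediate early genes, 30 were tested, 9 fell, 2 rose and 19 did not pass (median log2 fold change -0.70). That is 30% lower, against 5.46% of all tested genes, in a list also chosen with earlier results of these data known. The 3 with the smallest p were Klf4, Atf3 and Klf2. Klf4, a Kruppel-like factor, fell from 299 ± 36.5 to 56.4 ± 16.9 (SD, n = 4 each; log2 fold change -2.42, limma adjusted p = 0.000299). Atf3, a stress-induced repressor, fell from 66.5 ± 44.4 to 3.93 ± 0.828 (log2 fold change -3.52, limma adjusted p = 0.00185). Klf2, a factor of endothelial quiescence, fell from 210 ± 70.5 to 50.3 ± 7.84 (log2 fold change -1.98, limma adjusted p = 0.00244). Gadd45b and Ier5l, the paralog of Ier5, were the 2 that rose. That is 6.67% higher, near the 6.51% of all tested genes.

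Of 16 partners and regulators, among them the ternary complex factors Elk1, Elk3 and Elk4, the EGR corepressors Nab1 and Nab2, and the NR4A partner Rxra, 1 rose and 15 did not pass (median log2 fold change 0.01). That is 6.25% higher, near the 6.51% of all tested genes. Fhl2, a LIM protein that binds SRF, rose from 4.90 ± 0.582 to 14.6 ± 4.01 (SD, n = 4 each; log2 fold change 1.37, limma adjusted p = 0.00600). Of 14 actin and smooth muscle genes known as SRF targets, Cnn2 (calponin 2) rose from 40.9 ± 8.30 to 94.2 ± 39.6 and 13 did not pass (median log2 fold change 0.21; limma adjusted p of Cnn2 = 0.0392). That is 7.14% higher, again near the 6.51% of all tested genes. Next by p were Myl9, at 67.4 ± 26.4 and 98.8 ± 12.6 (adjusted p = 0.151 by limma, n = 4 each), and Vcl, at 312 ± 49.3 and 223 ± 47.0 (adjusted p = 0.158 by limma, n = 4 each). Of 13 genes reported elsewhere as EGR targets, Fn1, the fibronectin gene, fell from 23602 ± 6355 to 7218 ± 3619 (log2 fold change -1.81, limma adjusted p = 0.0390) and 12 did not pass, Col1a1, Scx and Nab2 among them (median log2 fold change -0.20). That is 7.69% lower, near the 5.46% of all tested genes.

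Markers of other cell types moved between the groups as well, and in bulk tissue fewer cells of a type and less RNA per cell cannot be told apart. Of 13 skeletal muscle markers 5 fell, which is 38.5%, against 5.46% of all tested genes. Sums over the 13 were 2340, 1621, 2881 and 112 in naive replicates 1 to 4 and 392, 16.0, 17.7 and 106 in cast replicates 1 to 4. The muscle signal was lower in all 4 cast libraries than in naive replicates 1 to 3, as Egr1 and Nr4a1 were, and naive replicate 4 lay between cast replicates 1 and 4. With the muscle level as a covariate the log2 fold changes were -3.60 for Nr4a1 (limma adjusted p = 0.00900) and -3.06 for Egr1 (adjusted p = 0.0227), and Nr4a2 was no longer called (-0.92, adjusted p = 0.0728). Srf was called lower in that fit (-0.81, adjusted p = 0.0356). The covariate, the mean log2 muscle level, was 6.08 to 6.87 in naive replicates 1 to 3 and 2.59 in naive replicate 4. In cast libraries it was 1.03 to 3.71, so only naive replicate 4, the shallowest library, overlapped the cast range. The fit therefore separates muscle level from group poorly, and the SE of Nr4a1 was 0.71 with the covariate and 0.47 without.

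Of 7 fat cell markers 3 fell, which is 42.9%, against 5.46% of all tested genes. Sums over the 7 were 3354 to 5345 in naive libraries and 1612, 2979, 2134 and 4855 in cast replicates 1 to 4. In 3 of 4 cast libraries the fat sum was thus below the naive range, as Egr1 and Nr4a1 were in all 4. In cast replicate 4, which had the lowest Egr1 and Nr4a1 values, the fat sum was within that range. Of the 4855 in cast replicate 4, 2696 came from Fabp4. Fabp4 was 887 to 1110 in naive libraries and 986, 1396 and 1159 in cast replicates 1 to 3. Plin1, Plin4 and Lep, the 3 that fell, were below their naive ranges in all 4 cast libraries. The 7 endothelial and 6 macrophage markers had overlapping sums, 880 to 1371 against 951 to 1332 and 1684 to 3190 against 2410 to 3486. Neutrophil markers (7 of 10 higher, against 6.51% of all tested genes) had sums of 23.1 to 66.8 in naive and 667 to 5961 in cast libraries. Red cell markers (7 of 7 higher) had sums of 1174 to 1773 and 3940 to 19837, with Hbb-bs at 0 in all naive libraries, and T cell markers (3 of 4 higher) 1.82 to 3.88 and 15.9 to 29.2. The part of muscle, beyond that covariate, and of fat, immune and red cells in the falls of the members was not tested.

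**Figure D4:**
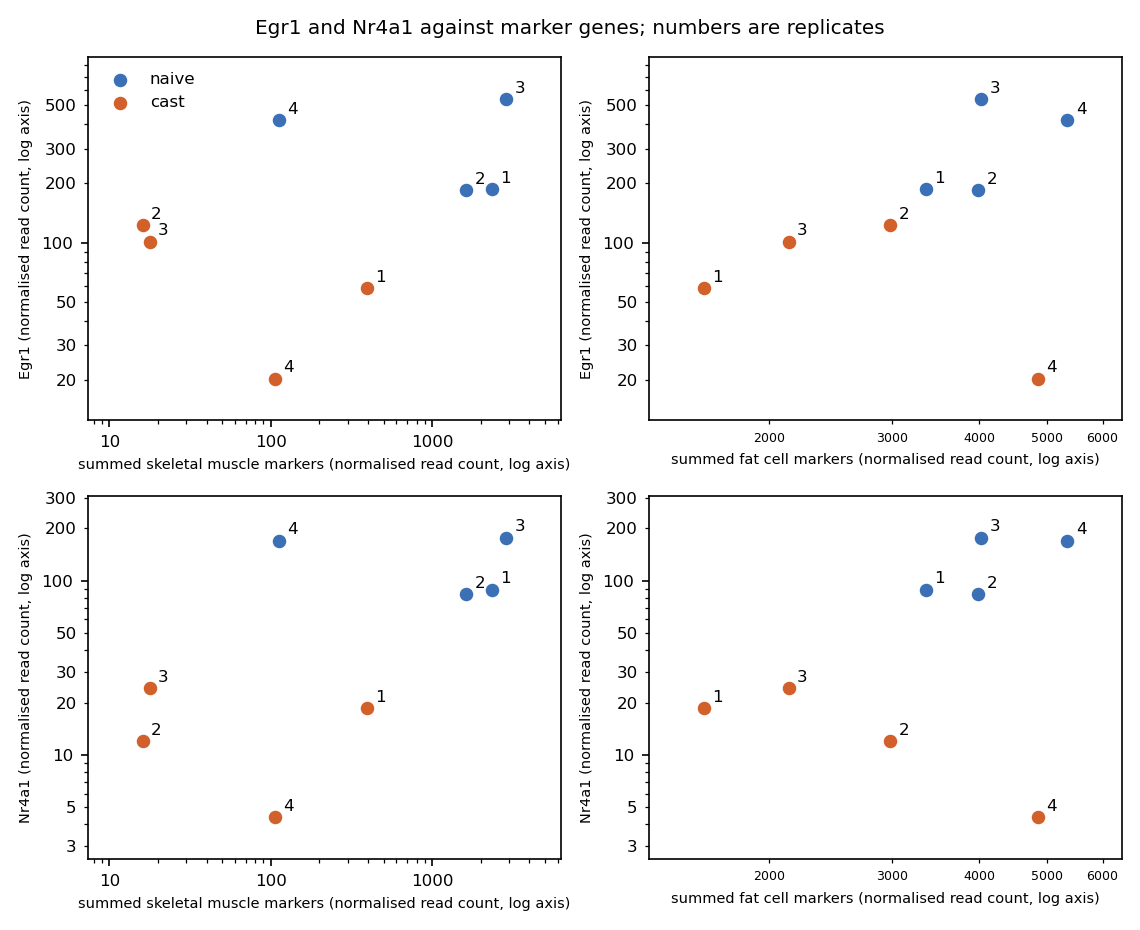
Egr1 (top) and Nr4a1 (bottom) against the summed level of skeletal muscle markers (left) and fat cell markers (right), in normalised read counts on log axes. Points are libraries (blue naive, orange cast) with their replicate number. Marker sums were lower in most cast libraries. Muscle sums overlapped through naive replicate 4 (112) and cast replicate 1 (392), and fat sums through cast replicate 4 (4855). Of that fat sum, 2696 came from Fabp4 alone. Beyond the fit with the muscle covariate, their part in the levels of Egr1 and Nr4a1 was not tested.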

How the data were processed

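Per the labels' protocols, ribosomal RNA was depleted from 200 ng of RNA, a directional kit was used, and paired reads of 150 nt were taken. The protocol names Trimmomatic 0.38 and human hg38, whereas mm10, edgeR, RSEM, Bowtie2 and Trimmomatic 0.36 are listed per the submitters' processing notes. The symbols are those of mouse genes. How strand was used in counting, and which annotation, is not given in the sources used here. The authors deposited a signal, the normalised read count of each gene. Divided by the worth of 1 read in its library, 100% of values were whole to within 0.01, which gave the reads. Every listed gene had at least 8 reads over all libraries.

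The filter kept means of 0.5 or more, and the test was limma-trend on log2(value + 1). Alternatives were pseudocounts of 0.5 and 5, filters, scalings, weights, a muscle covariate, each library left out, a replicate block, edgeR and DESeq2. Named genes were the members, called genes among partners and EGR targets, the 3 smallest p of the other lists, and the 5 genes most like Egr1 and Nr4a1. Members and lists were chosen with earlier results of these data known. Coordinates are from GENCODE M21. Scripts were tested on simulated data. Software was Python 3.11.15 with matplotlib 3.10.9, scipy 1.17.1, numpy 2.4.6 and pandas 2.3.3, and R 4.3.3 with DESeq2 1.42.0, limma 3.58.1 and edgeR 4.0.16.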

Additional observations from a re-analysis of the deposited data

Results flagged for a closer look

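Groups of 4 libraries were searched for a library standing apart from the other 3, in which its gap to the nearest one, as a share of the range of the group, exceeded the 95% critical value of Dixon. Of 36 groups, from 18 genes, 3 met this, where chance gives about 1 in 20. Nr4a3 was 92.8 in cast replicate 1 and 2.13 to 3.14 in the other cast libraries. Egr2 was 5.10 in cast replicate 2 and 2.47 to 2.59 in the others, and without that library its log2 fold change was -1.82 (limma adjusted p = 0.0102). The naive libraries had Fhl2 at 5.13 to 5.27, apart from replicate 2 with 4.03. These Fhl2 values rest on few reads, 35, 25, 31 and 8 in naive replicates 1 to 4.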

How the results depend on the processing

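Of 239 values of members under 24 alternatives, 220 kept their direction and their side of the threshold. The number of members called lower, 5, was 4 to 5 with 1 library left out, 4 to 6 over all alternatives, and 6 with array weights. Egr1 lost its call in 6 alternatives, Nr4a2 in 2 (the muscle covariate, and cast 1 and 2 left out together, adjusted p = 0.0880) and Egr2 in 1 (reads thinned to the shallowest library, adjusted p = 0.0588). Members called higher numbered 1, Ier3, with array weights (log2 fold change 1.16, adjusted p = 0.0198) and with naive 4 and cast 1 left out together (1.26, adjusted p = 0.0345). Signs turned for Nr4a3 (0.34) and Ier5 (-0.17) with the muscle covariate, and for Ier2 (0.027) with naive 4 and cast 1 left out together, and none of these 3 values was called. Nr4a3 was called lower with array weights (-2.54, adjusted p = 0.0112), without cast 1 (-2.81, adjusted p = 0.00230), without cast 1 and 2 (-2.82, adjusted p = 0.0128) and without naive 4 and cast 1 (-2.98, adjusted p = 0.000297), whereas edgeR gave -0.07 (adjusted p = 0.978) and DESeq2 no adjusted p. Srf was called only with the muscle covariate. Leaving out pairs of libraries and thinning were chosen after seeing the data.

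The 1810 genes called over the whole table became 3985 with array weights, 4240 with the muscle covariate, 2754 with DESeq2, 916 to 2665 with 1 library left out, 717 without cast 1 and 2, and 3278 without naive 4 and cast 1. The cause was not tested. With replicate number as a block, 1371 genes and 4 members were called, Egr1 being lost (adjusted p = 0.0546). The numbers share no stated source: deviations of libraries with the same number correlated at -0.057 to 0.080, and 1 of 8 libraries was closest to its own number. Depth limits Egr3 in cast libraries, at 3 to 12 reads, and Nr4a2 and Egr2 in naive replicate 4, at 15 and 18.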
